A study of Mus musculus with 13 samples.

Results

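The 9 genes described here are 7 genes of the Fos and Jun families (Fos, Fosb, Fosl1, Fosl2, Jun, Junb and Jund), the bZIP factor Atf3 and the zinc-finger factor Egr1. They were taken by symbol from an expression table of 15176 mouse genes, and all 9 were found and passed the filter for testing. Expression had been measured by RNA sequencing of 13 libraries of total RNA from cells followed through chemical reprogramming, the conversion of somatic cells to pluripotent cells with small molecules. Fos, Fosb, Jun, Fosl2 and Egr1 were lower in embryonic stem cells than in fibroblasts. Junb was also called lower but lost the call when any of 4 single libraries was left out, while Jund, Fosl1 and Atf3 did not pass the test. Fosl1 was highest in treated GFP-negative cells and Atf3 in GFP-positive clusters.

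Mouse embryonic fibroblasts (MEF, n = 3) were untreated cells of strain C57xICR taken from embryos. GFP-negative cells (n = 2) were picked from MEF cultures given the mix coded VC6TF and lacked fluorescence from Oct4-GFP, a reporter for the pluripotency factor Oct4. GFP-positive clusters (n = 1) and GFP-positive colonies (n = 1) were picked Oct4-GFP positive cells labelled VC6TF+Z. Embryonic stem cells (ESC, n = 4) were of the R1 line, from strain 129. Lines 6 and 11 of pluripotent cells induced with chemicals (CiPSC, n = 2) had been made from C57xICR cells with the mix coded VC6TFMB+Z. ESC and CiPSC were grown on feeder layers of MEF treated with mitomycin C, so their libraries can hold some fibroblast RNA. The labels give neither the meaning of the codes nor times of treatment, and do not say whether replicates were separate cultures, so the p-values measure only the spread between these samples.

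AP-1 is a dimeric transcription factor made of a Fos and a Jun protein, or of 2 Jun proteins, joined through a leucine zipper. It binds the TPA response element, whose core letters are TGANTCA, and with ATF partners the related cyclic AMP response element TGACGTCA. Fos, Fosb, Jun, Junb and Egr1 are immediate early genes: serum, growth factors and stress switch them on through kinases and bound factors, without new protein synthesis. In fibroblasts AP-1 acts at many enhancers and is known as a factor of the somatic state.

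The promoters are shown first, since the Fos and Jun promoters are known to hold sites of this kind. In the GRCm38.p6 annotation of RefSeq, Fos lies at chr12:85473890-85477274, Fosb at chr7:19302696-19310118, Fosl1 at chr19:5447698-5455938 and Fosl2 at chr5:32136472-32157840. Jun lies at chr4:95049036-95052222, Junb at chr8:84976909-84978748 and Jund at chr8:70697739-70700616. Atf3 lies at chr1:191170296-191183333. Reads of genes overlapping these spans cannot be told from those of the members, since strand handling is not given. Promoter entries of RefSeq (GRCm38.p6) matched 7 of the 9 genes, and Fosl1 and Egr1 were not among them. The 250 bases before the annotated start are printed 5′ to 3′ on the strand of the gene for Fos and Jun, the prototypes of both families, and for Atf3, whose highest value was in the clusters. For Fosb the start in the promoter table lies inside the gene span given above, so its window overlaps the gene and is not printed. Capitals mark matches to ACGTCA, TGACNTCA and TATAAA on either strand.
Fos, chr12:85473640-85473889, plus strand: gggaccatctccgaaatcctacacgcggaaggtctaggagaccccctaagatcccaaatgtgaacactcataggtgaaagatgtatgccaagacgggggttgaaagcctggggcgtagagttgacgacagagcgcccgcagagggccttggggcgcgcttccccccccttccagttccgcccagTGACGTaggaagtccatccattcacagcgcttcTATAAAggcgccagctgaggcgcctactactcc
Jun, chr4:95052223-95052472, minus strand: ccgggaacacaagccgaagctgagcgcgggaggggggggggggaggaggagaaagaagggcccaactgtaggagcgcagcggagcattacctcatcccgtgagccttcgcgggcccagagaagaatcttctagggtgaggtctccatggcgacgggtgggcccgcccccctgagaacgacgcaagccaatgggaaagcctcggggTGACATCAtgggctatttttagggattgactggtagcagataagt
Atf3, chr1:191183334-191183583, minus strand: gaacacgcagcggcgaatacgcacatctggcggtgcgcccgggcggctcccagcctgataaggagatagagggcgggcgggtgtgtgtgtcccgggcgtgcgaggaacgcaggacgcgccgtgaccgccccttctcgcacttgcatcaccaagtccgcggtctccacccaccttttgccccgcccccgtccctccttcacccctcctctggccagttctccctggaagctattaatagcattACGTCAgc

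The Fos window held TGACGT, the reverse complement of ACGTCA, from 66 to 61 bases before the start and TATAAA from 33 to 28 bases before it. The Jun window held TGACATCA from 45 to 38 bases before the start, a match to TGACNTCA. The Atf3 window held ACGTCA from 8 to 3 bases before the start. Windows of Fosb, Fosl2, Junb and Jund had no match to these letters, to TGANTCA or to the CArG box, the site of serum response factor. For Jund the RefSeq span was 2878 bases and the single-exon model used for its levels 1668. Its window may therefore lie away from the start of that model. TGACGTCA contains ACGTCA and is one form of TGACNTCA, so these searches overlap. Among 32851 mouse promoter windows of equal length, 6.47% held ACGTCA, 7.49% TGACNTCA, 6.75% TGANTCA, 1.55% TGACGTCA, 12.4% TATAAA and 1.47% a CArG box. The motifs were chosen after the sequences had been seen, and a match describes letters, not binding.

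Values were RPKM (reads per kilobase, scaled to the reads of each library). For 10 libraries the length in question was the gene span with its introns, and the estimated depth was 8.89 to 17.7 M reads. For ESC replicate 4 and both CiPSC lines it was exon length and the depth is unknown, so these 3 libraries were compared only with each other, and ESC below means replicates 1 to 3. MEF replicate 3, the colonies and ESC replicate 3 formed a second set of columns, which wrote 0.001 where the first set wrote an exact 0. The library labelled GFP-positive clusters went against its label: Pou5f1, the Oct4 gene, was at 0.260 RPKM there, 0.191 and 0.429 in GFP-negative cells, 124 in the colonies and 86.1 to 152 in ESC. The colonies had Pou5f1 but Nanog, another pluripotency factor, at only 0.0418 RPKM. They also had the extraembryonic endoderm markers Foxa2, Gata4 and Gata6 at 21.6, 6.82 and 5.39 RPKM. Their sum was 33.8, against at most 6.31 in the other gene-span libraries. The endothelial gene Cdh5 was at 5.42 in the colonies, while the endothelial genes Pecam1, Kdr and Tek were at 0.119, 0.0720 and 0.519. MEF replicate 3 had the macrophage genes Lyz2, Cd68 and C1qa at 97.2, 71.7 and 39.5 RPKM, against at most 22.6, 5.86 and 1.11 in the other MEF libraries. The 6 fibroblast markers summed to 658 to 2623 RPKM in MEF, 169 and 191 in GFP-negative cells, 108 in the clusters, 42.3 in the colonies and 10.9 to 24.1 in ESC, with none at 0, and all 6 were called lower in ESC than in MEF. The 6 macrophage and blood markers in the table, of 9 listed, summed to 20.5, 31.6 and 238 RPKM in MEF. The sums were 69.6 and 53.9 in GFP-negative cells, 46.6 in the clusters, 23.0 in the colonies and 3.17 to 11.1 in ESC. Cd14 alone was at 69.3 and 52.3 in GFP-negative cells and 45.5 in the clusters. None of the other markers of this list passed 1.45 RPKM in those libraries. The part of these other cells in the results below was not tested.

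Fos, the founding member of its family and the partner that makes AP-1 a strong activator, was at 41.6, 37.0 and 82.8 RPKM in MEF replicates 1, 2 and 3. It was at 27.0 and 20.4 in GFP-negative cells, 2.62 in the clusters (95% Poisson interval 2.07 to 3.26), 4.77 in the colonies (4.06 to 5.56) and 1.69, 0.195 and 0.914 in ESC. The levels thus stood in the order MEF, GFP-negative cells, colonies, clusters, ESC, and none of these ranges overlapped. Intervals cover counting error only, and in such bulk libraries fewer cells of a type and less RNA per cell cannot be told apart. Fosb, a close relative of Fos, was at 7.44, 8.0 and 11.5 RPKM in MEF. It was at 1.22 and 2.29 in GFP-negative cells, 0.184 in the clusters, 0.462 in the colonies and 0.113, 0.0789 and 0.163 in ESC. Every library outside MEF was below every MEF library for Fosb, and the clusters at an estimated 12.1 reads were near the ESC range, whose libraries had 7.06 to 12.1 reads.

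Fosl1 (Fra-1) and Fosl2 (Fra-2), Fos-related proteins without a strong activation domain, had other patterns. Fosl1 was at 3.66, 2.08 and 0.290 RPKM in MEF and at 6.37 and 6.98 in GFP-negative cells. It was at 4.50 in the clusters (4.03 to 5.02), 0.544 in the colonies and 0.675, 2.03 and 0.278 in ESC. GFP-negative cells and the clusters were above all MEF libraries, while MEF, colonies and ESC overlapped. Fosl2 was at 12.0, 9.34 and 6.68 RPKM in MEF, 13.3 and 8.74 in GFP-negative cells and 17.97 in the clusters (17.4 to 18.6). It was at 0.988 in the colonies and 1.03, 0.692 and 0.360 in ESC. For Fosl2 the libraries fell into a high set of MEF, GFP-negative cells and clusters and a low set of colonies and ESC, with no overlap between the sets.

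Jun, the Jun protein with the strongest transforming activity and the usual partner of Fos, was at 19.7, 27.5 and 38.8 RPKM in MEF. It was at 13.7 and 39.1 in GFP-negative cells, 24.0 in the clusters, 15.2 in the colonies and 1.75, 0.337 and 3.35 in ESC. Every library of MEF, GFP-negative cells, clusters and colonies was above every ESC library for Jun. MEF, GFP-negative cells and clusters overlapped, and the colonies lay below each MEF library. Junb, a weaker activator that can restrain Jun, was at 11.1, 9.20 and 70.5 RPKM in MEF and 8.0 and 15.1 in GFP-negative cells. It was at 1.74 in the clusters (1.15 to 2.51), 21.3 in the colonies (19.3 to 23.6) and 0.250, 1.05 and 6.02 in ESC. MEF replicate 3 and ESC replicate 3, both of the second set, were the highest of their groups for Junb. Jund, the Jun gene least dependent on stimulation, was at 12.95, 12.3 and 50.5 RPKM in MEF, 5.05 and 11.2 in GFP-negative cells and 29.8 in the clusters. It was at 54.6 in the colonies and 13.8, 7.95 and 33.2 in ESC. The Jund ranges of MEF and ESC overlapped widely, and GFP-negative cells lay below every MEF library and overlapped ESC.

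Egr1, a zinc-finger immediate early factor induced by serum through the same kinases as Fos (chr18:34861207-34864956, GRCm38.p6), was at 84.2, 70.2 and 99.6 RPKM in MEF and 51.4 and 72.4 in GFP-negative cells. It was at 18.9 in the clusters (17.5 to 20.5), 10.5 in the colonies (9.51 to 11.6) and 0.916, 1.60 and 0.475 in ESC. Egr1 levels of MEF and GFP-negative cells overlapped, and the clusters, the colonies and ESC followed in descending order without overlap. Atf3, a stress-induced bZIP factor that pairs with Jun proteins, was at 0.588, 1.10 and 1.57 RPKM in MEF and 1.57 and 3.84 in GFP-negative cells. It was at 5.87 in the clusters (5.44 to 6.33), 0.847 in the colonies and 0.455, 0.386 and 0.0612 in ESC. The clusters had the highest Atf3 of the 10 libraries, and every ESC library was below every MEF library.

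**Figure D1:**
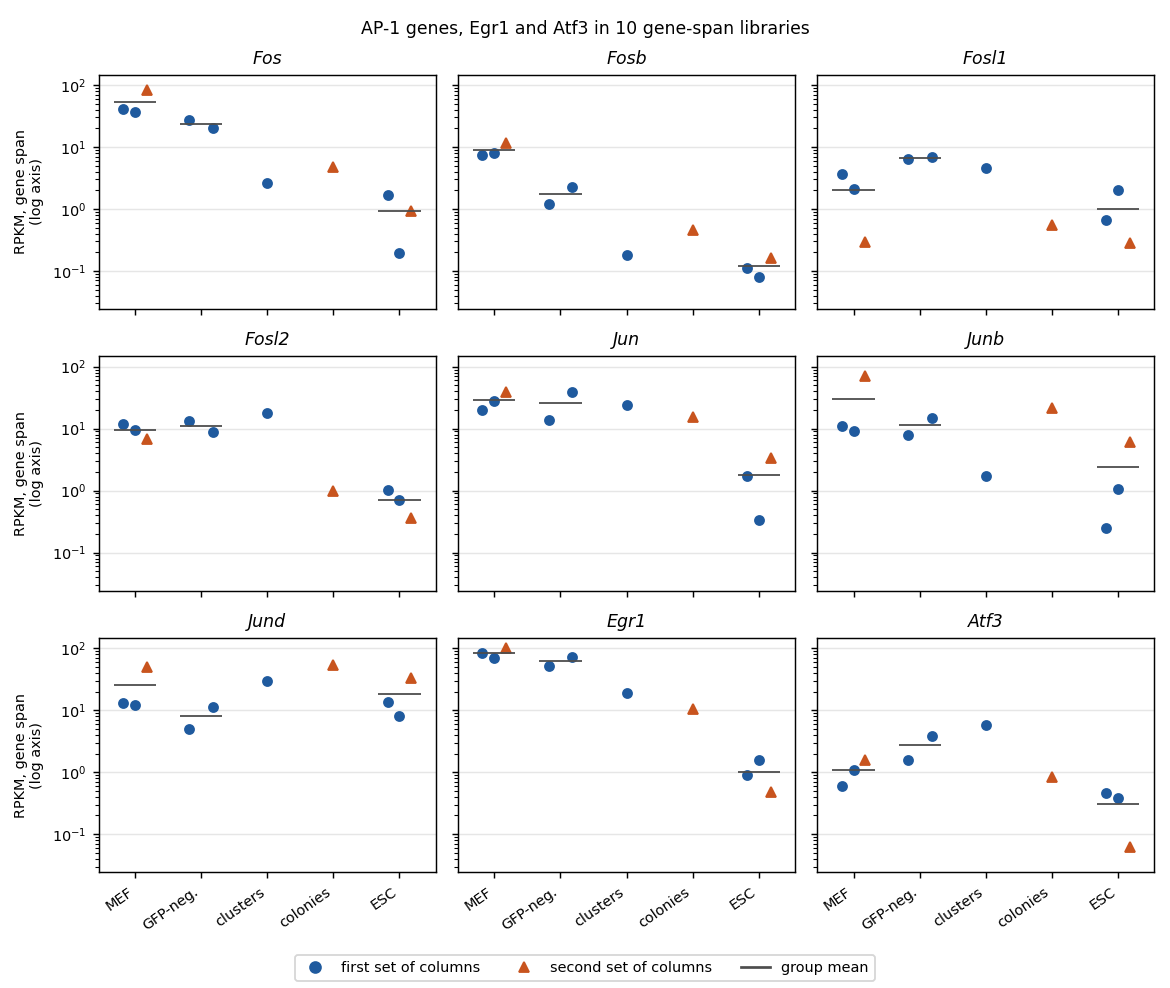
RPKM per kilobase of gene span on a log axis for each of the 9 genes in 10 libraries, with 1 point per library, circles for the first set of columns, triangles for the second, and lines for group means. Fos, Fosb and Egr1 are highest in MEF and lowest in ESC, Fosl2 is low in the colonies and ESC, and Jund lies within 5.05 to 54.6 RPKM.

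ESC were compared with MEF to set a pluripotent reference against the starting cells. They were not made from these MEF and also differ from them in strain and culture, which cannot be told apart from cell type. In ESC comparisons fell and rose mean lower and higher in ESC, not a change over time. Of the 9 genes, 6 fell and 0 rose (limma on log2(RPKM + 1), adjusted p under 0.05 over 10647 genes and a log2 change of at least 1), where 7.97% of all tested genes fell by this rule. Egr1 changed most, from 84.7 ± 14.7 RPKM in MEF to 0.996 ± 0.565 in ESC (SD, n = 3 each), a log2 change of −5.45 ± 0.29 (SE, limma adjusted p = 1.45e-05). Fos came next, from 53.8 ± 25.2 to 0.933 ± 0.747 RPKM (−4.81 ± 0.39, limma adjusted p = 9.07e-05). Jun went from 28.7 ± 9.62 to 1.81 ± 1.51 RPKM (−3.51 ± 0.52, limma adjusted p = 0.00198), and Fosb from 8.99 ± 2.21 to 0.118 ± 0.0425 (−3.14 ± 0.20, limma adjusted p = 2.82e-05). Fosl2 went from 9.34 ± 2.66 to 0.695 ± 0.338 RPKM (−2.60 ± 0.27, limma adjusted p = 0.000353). These log2 changes of RPKM + 1 understate the change of genes near 0, such as Fosb in ESC.

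Junb fell from 30.3 ± 34.9 to 2.44 ± 3.13 RPKM (−2.98 ± 0.83, limma adjusted p = 0.0321), the least certain of the 6. Without MEF replicate 3, the library high in macrophage genes, the change was −2.08 (limma adjusted p = 0.0613), and leaving out ESC replicate 1, ESC replicate 2 or MEF replicate 1 also ended the call (limma adjusted p = 0.105, 0.0937 and 0.0502), as did a fit of only these 2 groups (0.054). Atf3 was at 1.09 ± 0.491 and 0.301 ± 0.210 RPKM (−0.67 ± 0.27, limma adjusted p = 0.110), so its separate ranges did not make a call. Fosl1 was at 2.01 ± 1.69 and 0.996 ± 0.921 RPKM (−0.50 ± 0.47, limma adjusted p = 0.477). Jund was at 25.2 ± 21.9 and 18.3 ± 13.2 RPKM (−0.36 ± 0.65, limma adjusted p = 0.733), and its difference turned to 0.28 without MEF replicate 3. The ranges of 7 of the 9 genes lay wholly lower in ESC, against 16.7% of tested genes, and the median change was −2.98 for the 9 genes and 0.14 for all genes tested.

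GFP-negative cells were compared with MEF to describe cells that had been treated and had not switched on the reporter. Only Fosb fell and 0 of the 9 rose, where 4.09% of all tested genes fell and 3.53% rose. Fosb was at 8.99 ± 2.21 RPKM in MEF and 1.75 ± 0.754 in GFP-negative cells (SD, n = 3 and 2), which is −1.86 ± 0.23 on the log2 scale (limma adjusted p = 0.00181). With the first set of columns alone it was −1.69 (limma adjusted p = 0.0533), and with only these 2 groups in the fit limma adjusted p was 0.112. With a replicate block, fitted on the first-set MEF, GFP-negative and ESC libraries alone, limma adjusted p was 0.105. Fos was at 53.8 ± 25.2 and 23.7 ± 4.64 RPKM (−1.07 ± 0.44, limma adjusted p = 0.165). The ranges of Fos, Fosb and Jund lay wholly below MEF, as did those of 27.1% of tested genes, and the ranges of Fosl1 and Atf3 wholly above, as did those of 13.5%, although Atf3 was at 1.571 in the lower GFP-negative library and 1.570 in the highest MEF library.

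Fosl1 and Atf3 had the largest positive differences among the 9 in GFP-negative cells, and neither passed the test. Fosl1 was at 2.01 ± 1.69 RPKM in MEF and 6.67 ± 0.432 in GFP-negative cells (1.53 ± 0.52, limma adjusted p = 0.106), and Atf3 at 1.09 ± 0.491 and 2.70 ± 1.60 (0.78 ± 0.30, limma adjusted p = 0.145). Atf3 became a call (1.24, limma adjusted p = 0.0499) when GFP-negative replicate 1 was left out, a fit in which the lone GFP-negative library is assumed to vary like the other groups. Jund was at 25.2 ± 21.9 and 8.11 ± 4.33 RPKM (−1.31 ± 0.73, limma adjusted p = 0.301), and Junb at 30.3 ± 34.9 and 11.6 ± 5.03 (−0.78 ± 0.93, limma adjusted p = 0.648). Junb turned to 0.12 without MEF replicate 3. Egr1 was at 84.7 ± 14.7 and 61.9 ± 14.9 RPKM (−0.45 ± 0.33, limma adjusted p = 0.428), Jun at 28.7 ± 9.62 and 26.4 ± 17.98 (−0.24 ± 0.58, limma adjusted p = 0.842) and Fosl2 at 9.34 ± 2.66 and 11.0 ± 3.21 (0.22 ± 0.30, limma adjusted p = 0.696). The 2 GFP-negative libraries themselves differed in Jun, at 13.7 and 39.1 RPKM, by more than the MEF range. The median change was −0.45 for the 9 genes and −0.13 for all genes tested.

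ESC were also set against GFP-negative cells, which differ from them in strain and in culture as well as in treatment. Of the 9 genes 7 were lower in ESC and 0 higher, where 8.35% of tested genes were lower and 14.3% higher. Egr1 differed by −5.00 ± 0.33 (limma adjusted p = 3.45e-05) and Fos by −3.74 ± 0.44 (limma adjusted p = 0.000522). Jun differed by −3.27 ± 0.58 (limma adjusted p = 0.0038) and Fosl2 by −2.82 ± 0.30 (limma adjusted p = 0.000363). These 4 genes kept their calls when any library was left out. Fosl1 at −2.04 ± 0.52, Atf3 at −1.45 ± 0.30 and Fosb at −1.27 ± 0.23 (limma adjusted p = 0.0191, 0.0079 and 0.00414) were called as well. All 3 lost the call when GFP-negative replicate 2 was left out, under the same assumption for the lone library. They also lost it with a replicate block, fitted on the first-set MEF, GFP-negative and ESC libraries alone. Over all alternatives Fosl1 lost the call in 5, Atf3 in 3 and Fosb in 2. Junb differed by −2.20 ± 0.93 (limma adjusted p = 0.104), and by −2.91 (limma adjusted p = 0.0109) with the first set of columns alone. Jund differed by 0.95 ± 0.73 (limma adjusted p = 0.345) and was the only member whose ranges overlapped, where 17.6% of tested genes lay wholly lower. This comparison shares its ESC libraries with the ESC and MEF comparison, and its GFP-negative libraries with the one before.

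**Figure D2:**
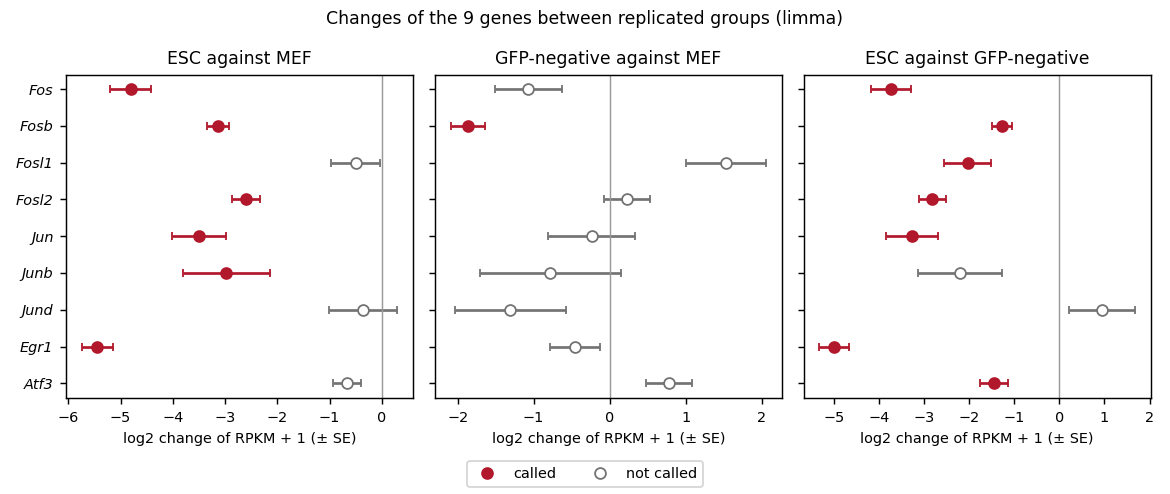
Log2 change of RPKM + 1 (x axis) for each of the 9 genes in 3 comparisons of replicated groups, with bars of 1 SE and filled points for genes that passed the test. The filled points number 6 in ESC against MEF, 1 in GFP-negative cells against MEF and 7 in ESC against GFP-negative cells, and all lie left of 0.

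The library labelled clusters had no replicate, so its differences are given without a test. Against the MEF mean, 4 of the 9 genes were lower by at least 1 on the log2 scale and 2 higher, where 19.7% and 10.8% of all genes were. Fos differed by −3.83, Fosb by −3.05, Junb by −2.92 and Egr1 by −2.09, and all 4 were below the MEF range, as were 52.4% of all genes. Atf3 differed by 1.75, Fosl1 by 1.06 and Fosl2 by 0.91, and these 3 were above the MEF range, as were 25.8% of all genes. Jun (−0.20) and Jund (0.54) were inside it. The clusters belong to the first set, while the MEF mean and range include MEF replicate 3 of the second set. Jund was at 29.8 RPKM in the clusters, above MEF replicates 1 and 2 (12.95 and 12.3) and below replicate 3 (50.5). Fosl1 was at 4.50 in the clusters, beside 3.66 and 2.08 in MEF replicates 1 and 2 and 0.290 in replicate 3. The median of the 9 was −0.20 against −0.24 for all genes. Of the 19 other immediate early genes 10 were lower by at least 1 and 3 higher, and 12 were below and 6 above the MEF range. Against GFP-negative cells, 4 genes were lower and 1 higher, where 13.2% and 11.4% of all genes were. Fos differed by −2.76, Junb by −2.14, Egr1 by −1.64 and Fosb by −1.19, while Jund differed by 1.85. Kdr, an endothelial receptor, and Des, a muscle filament gene, were at 24.6 and 24.9 RPKM in the clusters and at no more than 2.36 in the other gene-span libraries, and no other endothelial or muscle marker passed 0.1 RPKM there. The part of such cells was not tested.

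The colonies, also 1 library and from the second set of columns, differed from the clusters in the Fos-related genes. Fosl2 was 17.97 RPKM in the clusters and 0.988 in the colonies (−3.25), Atf3 5.87 and 0.847 (−1.90), and Fosl1 4.50 and 0.544 (−1.83). Junb went the other way, 1.74 and 21.3 RPKM (3.03). Thus 3 genes were lower by at least 1 and 1 was higher, where 12.6% and 27.3% of all genes were. This comparison crosses the sets of columns, and in MEF and ESC Junb was 6.94 and 9.25 times as high in the second set as in the first and Fosl1 0.101 and 0.206 times and Fosl2 0.626 and 0.416 times, so the set and the stage cannot be told apart for these genes.

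Against the MEF mean, Fos differed in the colonies by −3.16, Egr1 by −2.88, Fosb by −2.75 and Fosl2 by −2.35, and Jund by 1.39. These are 4 genes lower and 1 higher, where 7.3% and 14.3% of all genes were. Against MEF replicate 3 alone, within the second set, 6 genes were lower and 0 higher, where 8.24% and 7.86% of all genes were. Against the ESC mean, Junb differed by 3.09, Jun by 2.69, Egr1 by 2.57, Jund by 1.75 and Fos by 1.65, so 5 of the 9 were higher and 0 lower, where 14.9% and 9.24% of all genes were. Against ESC replicate 3, within the second set, 4 were higher and 0 lower, where 8.83% and 9.72% of all genes were. Jund, at 54.6 RPKM in the colonies and 33.2 in ESC replicate 3, was not among these 4. Fosl2 at 0.988 RPKM lay within the ESC range, and Jun at 15.2 RPKM above it.

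**Figure D3:**
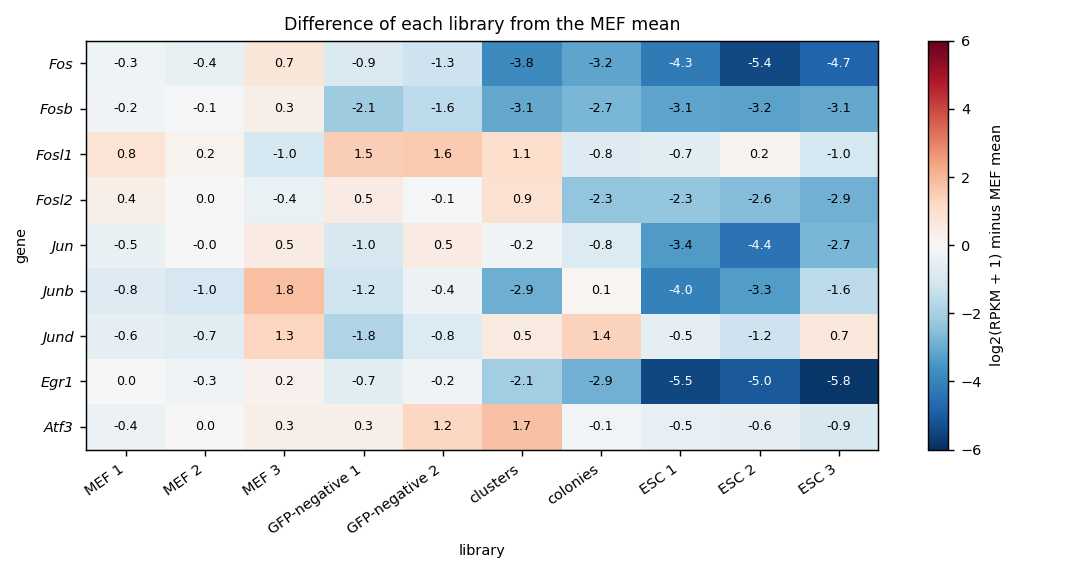
Heat map of log2(RPKM + 1) in each of 10 gene-span libraries minus the MEF mean, with genes as rows, libraries as columns and the value in each cell. The clusters column holds the lowest values outside ESC for Fos and Junb (−3.83 and −2.92) and the highest value for Atf3 (1.75).

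To compare levels between genes, the gene-span values were rescaled to RPKM per kilobase of exon with the annotated span and exon lengths. This left the single-exon genes Jun, Junb and Jund as they were. It assumes that no counted read lay in an intron, which was not tested. Intronic reads would raise Fosl1, Fosl2 and Atf3 most, whose spans were 4.83, 3.64 and 6.59 times their exon lengths. On this scale Egr1 and Fos were the 2 highest of the 9 in each MEF library, with Egr1 at 103, 85.7 and 122 and Fos at 66.8, 59.5 and 133. In the clusters Fosl2 (65.5) and Atf3 (38.7) led. Jund led in the colonies (54.6) and in ESC replicates 1 and 3 (13.8 and 33.2), and Fosl1 (9.83) in ESC replicate 2. Fos itself made up 46.8, 49.9 and 73.3% of the summed Fos family in MEF, 34.7 and 31.9% in GFP-negative cells and 4.6% in the clusters. Fosl2 took 71.3% of the family in the clusters, against 13.4 to 30.6% in MEF and 38.8 and 31.0% in GFP-negative cells. Fosl1 took 23.7% in the clusters and 24.6 and 32.8% in GFP-negative cells.

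The Fos family sum was 143, 119 and 181 in MEF and 125 and 103 in GFP-negative cells on the exon scale. It was 91.8 in the clusters, 14.8 in the colonies and 10.0, 12.8 and 4.4 in ESC. The clusters thus had a family sum below each GFP-negative library, with a smaller share of Fos and a larger share of Fosl2. The colonies had a sum above every ESC library, with Fos at 51.8% of it. ESC replicate 3, the ESC library of the same set of columns, was the lowest at 4.4. In the Jun family, Jund took 29.6, 25.1 and 31.6% in MEF, 18.9 and 17.1% in GFP-negative cells, 53.7% in the clusters, 59.9% in the colonies and 87.4, 85.1 and 78.0% in ESC. Jun took 24.3 to 56.1% in MEF and 3.6 to 11.1% in ESC. The sums and shares depend on the gene models and on the assumption that no counted read lay in an intron. No test was run on them.

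**Figure D4:**
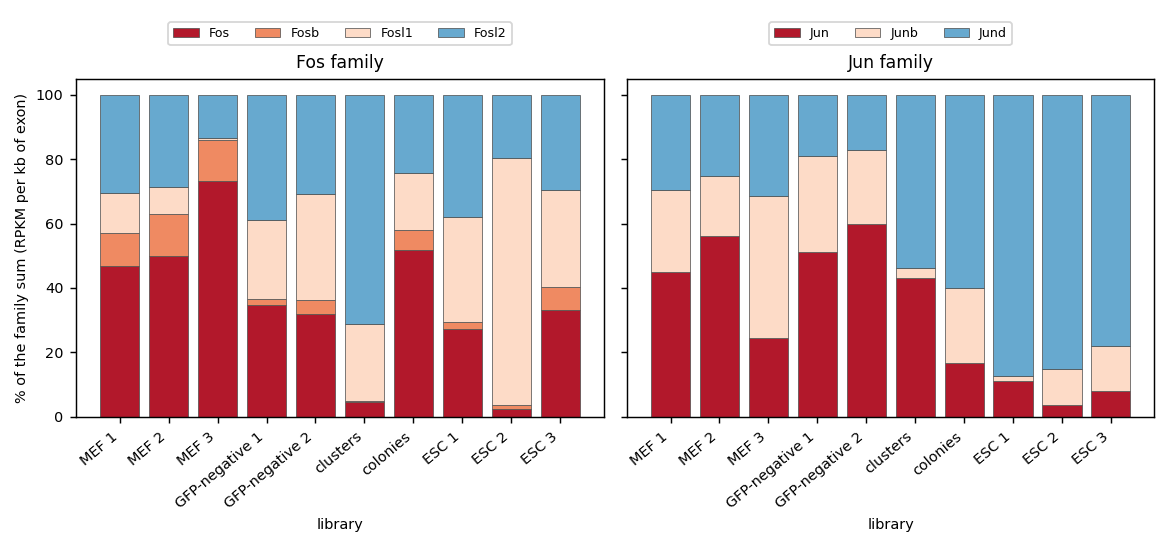
Stacked bars of the share of each gene (percent of the family sum, RPKM per kilobase of exon) in the Fos family (left) and the Jun family (right) in each of 10 libraries. Fosl2 fills 71.3% of the Fos family in the clusters, and Jund 78.0 to 87.4% of the Jun family in ESC.

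The MEF libraries differed among themselves most in Fosl1, with a ratio of highest to lowest of 12.6, followed by Junb (7.66) and Jund (4.11). The ratio was 1.42 for Egr1, 1.55 for Fosb, 1.80 for Fosl2, 1.97 for Jun, 2.24 for Fos and 2.67 for Atf3. MEF replicate 3 was the highest of the MEF libraries for Fos, Fosb, Jun, Junb, Jund, Egr1 and Atf3. It was the lowest for Fosl1 and Fosl2. Jund was 3.998 times as high in the second set as in the first in MEF and 3.06 times in ESC, while the median ratio over all genes was 1.09 and 1.12. For Fos the ratio was 2.11 in MEF and 0.970 in ESC, and for Egr1 1.29 and 0.379. Jun was higher in the second set in both groups (1.65 and 3.22 times), as was Fosb (1.49 and 1.70), and Fosl2 was lower (0.626 and 0.416). Thus 6 genes, with Junb, Jund and Fosl1, lay on the same side in MEF and in ESC, and Fos, Egr1 and Atf3 did not.

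CiPSC lines were compared with ESC replicate 4, the only ESC library on the exon scale, to ask whether induced and embryonic cells differ. None of the 9 genes was called in either direction with limma (0 at an unadjusted p under 0.05), where 0.0376% of tested genes were lower and 0.122% higher. With 1 library on the ESC side, the standard errors and p-values assume that it varies like the other groups. Jund was the highest of the 9 in all 3 libraries, at 18.2 RPKM in ESC replicate 4 and 14.9 in each of lines 6 and 11 (log2 change −0.27 ± 0.98). Egr1 was at 2.34 in ESC replicate 4 and 2.38 and 2.01 in the lines (−0.07 ± 0.44), and Fos at 0.483, 0.553 and 0.410 (SE of the change 0.59). Junb was at 5.82 in ESC replicate 4 and 2.24 and 1.88 in the lines (−1.16 ± 1.25), the largest difference of the 9. It became a call when only these 3 libraries entered the fit. Jun was at 0.510, 0.813 and 0.694 RPKM (0.21 ± 0.77) and Atf3 at 0.396, 0.365 and 0.221 (−0.11 ± 0.41). Fosl2 was at 0.248, 0.150 and 0.151 RPKM, Fosl1 at 0.108, 0.0516 and 0.0405 and Fosb at 0.0307, 0.0129 and 0.0426. With 1 ESC library and standard errors of 0.31 to 1.25, these comparisons do not show that the levels are alike.

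Other genes of the pathway were described by lists, chosen with earlier results of these data known, and listed genes outside the table or under the filter were not analysed here. Of all tested genes, 7.97% fell and 7.95% rose in ESC against MEF. Of the other immediate early genes, 9 of 19 tested fell in this comparison and 0 rose, with a median of −1.76. The matrix-bound proteins Cyr61 (−5.16 ± 0.69) and Ctgf (−3.81 ± 0.97), the mRNA decay factor Zfp36 (−3.40 ± 0.55) and the stress sensor Gadd45g (−3.21 ± 0.37) changed most (limma adjusted p at most 0.0229). Of the other bZIP partners and inhibitors 4 of 8 fell and 0 rose. The stress factor Atf5 (−3.93 ± 0.55, limma adjusted p = 0.00162) led, followed by the small Maf factors Maff (−1.90) and Mafk (−1.89) and the stress factor Atf4 (−1.06). Of 8 known AP-1 target genes 3 fell and 0 rose: the protease inhibitor Timp1 (−3.18), the urokinase Plau (−2.73) and the hyaluronan receptor Cd44 (−1.93). Nab2, a corepressor bound by Egr1, fell by 2.97 on the log2 scale and was the only one called of 3 EGR family genes and corepressors. The 14 upstream kinases and factors held 1 that fell, the ternary complex factor Elk4 (−1.24 ± 0.38, limma adjusted p = 0.0448), and 0 that rose. Their median was 0.09, beside 0.14 for all genes.

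In GFP-negative cells against MEF the other immediate early genes moved in both directions, with 4 of 19 lower and 1 higher. Among all tested genes 4.09% were lower and 3.53% higher. Ctgf was at 451 ± 345 RPKM in MEF and 6.33 ± 6.94 in GFP-negative cells, Gadd45g at 27.7 ± 1.85 and 0.159 ± 0.0816, Ier2 at 40.5 ± 30.1 and 1.74 ± 0.954, and Cyr61 at 334 ± 132 and 39.6 ± 30.0. Ier3, which protects from cell death and was the only one of the list to rise, was at 33.9 ± 11.4 and 206 ± 6.67 RPKM (2.63 ± 0.38, limma adjusted p = 0.00414). It is given here outside the naming rule, after its values had been seen. The early growth response gene Egr2 rose from 1.65 ± 0.0745 to 10.7 ± 6.52 RPKM (2.03 ± 0.44, limma adjusted p = 0.0245), while Egr1 was not called. The matrix protease Mmp3 rose as well (3.76 ± 0.65, limma adjusted p = 0.00955) and was the only AP-1 target gene called. Of the upstream genes 0 of 14 were called (limma), and 3 had an unadjusted p under 0.05: Srf, Elk3 and Mapk9. Of 6 macrophage and blood markers only Cd14 was high in GFP-negative cells, at 69.3 and 52.3 RPKM, and C1qa was listed at 0 in both. Markers of other cells called higher there were the keratinocyte gene Krt5 (6.34 and 4.79 RPKM, log2 change 2.13) and the endoderm gene Foxa2 (2.08 and 5.25 RPKM, log2 change 2.09). Krt14 was at 1.07 and 11.3 RPKM. Of the same lists, the epithelial genes Cdh1 and Epcam were at 0.116 and 0.353 and at 0 and 0.0320. The endoderm genes Gata4 and Gata6 were at 0.00124 and 0.0426 and at 0.243 and 1.02. The part of such cells in the results was not tested.

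**Figure D5:**
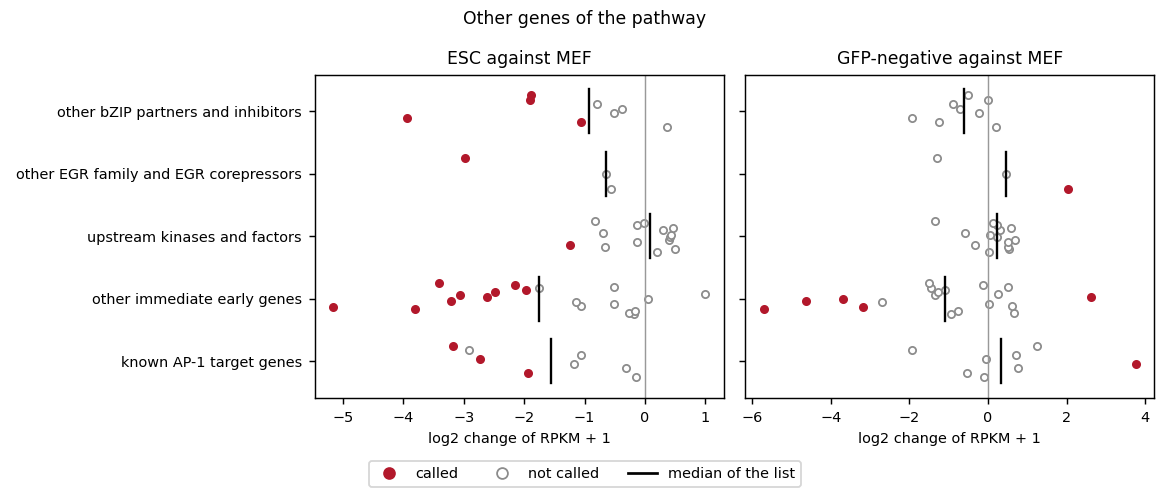
Log2 change of RPKM + 1 (x axis) of each tested gene of the 5 other lists, in ESC against MEF (left) and GFP-negative cells against MEF (right), with filled points for genes that passed the test and vertical bars for list medians. No filled point lies right of 0 on the left side, and 3 do on the right side: Egr2, Ier3 and Mmp3.

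In ESC against GFP-negative cells 6 other immediate early genes were lower and 2 higher, led by Ier3 (−5.24) and Ier2 (3.74). Among all tested genes 8.35% were lower and 14.3% higher. Mmp3 (−4.94), Timp1 (−4.43), Plau (−2.68) and Plaur (−1.78) were the 4 AP-1 target genes called, all lower. All 3 EGR family genes and corepressors, 2 bZIP genes (Atf5 −2.01 and Maff −1.89) and 1 upstream gene (Elk3 −1.18) were lower, and none of these 3 lists held a gene called higher. In the clusters against GFP-negative cells, without a test, 4 of the 19 immediate early genes were higher by at least 1 and 3 lower. Their median was −0.11. Among all tested genes 11.4% were higher and 13.2% lower by at least 1. Of the 19, those furthest from 0 were Gadd45b (4.53), Csrnp1 (2.40), Ctgf (2.22) and Rhob (−1.85). Gadd45b was at 31.4 RPKM in the clusters and 0.481 in the GFP-negative mean. In the colonies 13 of the 19 were lower than in MEF by at least 1, and 1 was higher. Among all tested genes 7.3% were lower and 14.3% higher by this measure. Of all 5 lists, 0 genes were called in CiPSC against ESC replicate 4 with limma, and 1, the bZIP factor Atf4, had an unadjusted p under 0.05 (log2 change 1.23 ± 0.50).

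Over the 10 gene-span libraries, which share 2 sets of columns and 5 groups, Fos was most like Egr1 (Pearson r of log2(RPKM + 1) = 0.93) and Fosb (0.92) among the members. Jun was most like Egr1 (0.89), as was Fosl2 (0.85). Jund stood apart, with r of −0.67 with Fosl1 and −0.04 with Fos. Of 2672 other genes at 10 RPKM or more in a library, the nearest to Fos were Serpinf1 (0.98), Nov (0.96) and Anxa5 (0.95). The nearest to Fosb were Gpnmb (0.98), Postn (0.98) and Pdgfrb (0.97), of which Postn and Pdgfrb are fibroblast markers. Axl (0.98) was nearest to Fosl2, Tnfrsf1a (0.97) to Jun and Zyx (0.96) to Egr1. Srxn1 (0.95) was nearest to Fosl1 and Gstt3 (0.97) to Atf3. For Junb they were Atn1 and the lysosomal protease Ctsd (0.95 each), and for Jund 2310044H10Rik (0.99). These correlations describe 10 libraries, of which 3 are MEF and 3 ESC, and carry no test.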

How the data were processed

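The deposited table gave RPKM values for 13 libraries, per the file headers, made by the authors with TopHat 1.3.0 on mm9, per the submitters' processing notes. For counting tool, annotation, strand and filters the sources used here give nothing. Of 15184 rows, 8 that shared 1 identifier were left out. All columns were used and 0 pairs were identical.

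Library scale was checked with gene lengths from GRCm38 annotation (13458 genes with a span). RPKM times span gave whole multiples of 1 read for 65.1 to 69.3% of low values in 10 libraries (tolerance 0.05) and 12.1 to 13.0% in ESC replicate 4 and the CiPSC lines. On log2 of span over exonic length, levels had slopes of 0.757 to 0.758 in those 3 (5670 genes). The slopes were −0.262 to −0.115 in the second set of columns and −0.067 to 0.203 in the first. The part of this length-linked difference between the sets in the member values was not tested. Depth, estimated reads and Poisson intervals at 95% follow from these steps and cover counting error only.

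R 4.3.3 with limma 3.58.1 was run on log2(RPKM + 1) of the 10647 genes that reached 1 RPKM in 2 libraries, with a coefficient per group, a term for the length scale and a trended prior (6 residual and 2.58 prior degrees of freedom). Adjustment was by Benjamini-Hochberg over all tested genes, and a gene was called at an adjusted p under 0.05 and a log2 change of at least 1. Changes have SE and levels SD. The test was also run on simulated data. Python 3.11.15 did the rest.

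All members were named, and from each other list up to 4 called genes with the largest change per comparison (in single libraries, genes past the same change). Nearest patterns were the 3 genes with the highest r per member. One gene of these lists is not reported here, and its list is counted without it. The members and lists were chosen with earlier results of these data known. Alternatives covered pseudocount, filter, scaling, trend, samples in the fit, set of columns, replicate block and each library left out.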

Additional observations from a re-analysis of the deposited data

How the results depend on the processing

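Among the single members, Fos, Fosb, Fosl2, Jun and Egr1 kept the direction and the call in ESC against MEF under every alternative that gave a value. The replicate numbers did not pair the libraries (correlations of deviations of −0.04, −0.07 and 0.08). The replicate block was fitted on the first-set MEF, GFP-negative and ESC libraries alone, so the block and the fewer libraries cannot be told apart. With it, called genes went from 1695 to 812 in ESC against MEF and 811 to 141 in GFP-negative cells against MEF. In ESC against GFP-negative cells they went from 2415 to 1500. Fosb, the 1 member lower in GFP-negative cells, was lost (0). It was also lost with only these 2 groups (0) and with the first set (0). With a pseudocount of 0.1 the 3 comparisons gave 2590, 1391 and 3861 calls. GFP-negative cells against MEF gave 526 with a 5 RPKM filter, 453 with only the gene-span libraries, 5 with only the 2 groups, 343 with the first set and 562 to 1499 leaving out libraries, and ESC against GFP-negative cells 1470 with only the 2 groups. Leaving out libraries gave 0 or 1 member higher in GFP-negative cells and 4 to 7 lower in ESC than in GFP-negative cells. CiPSC against ESC replicate 4 (17 genes) gave 2 with a 5 RPKM filter, 50 with no filter, 9 with no trend, 205 with only the 2 groups, 3 with the smaller pseudocount, 28 with quantile scaling and 10 to 12 leaving out a line, with 1 member (Junb) lower with only the 2 groups. In the clusters against GFP-negative cells the 1 higher member became 2 with the smaller pseudocount, 2 with upper-quartile scaling and 1 to 2 leaving out libraries. In the colonies, 5 members rather than 3 were lower than in the clusters with upper-quartile scaling, and the 1 higher than in MEF became 0 within the second set, an alternative chosen after seeing the data, and 1 to 2 leaving out libraries. Directions turned for Jund in ESC against MEF (0.09 without ESC replicate 2 and 0.28 without MEF replicate 3, the range leaving out libraries being −0.88 to 0.28). In GFP-negative cells against MEF, leaving out libraries gave −0.053 to 0.50 for Fosl2, −0.96 to 0.49 for Jun and −1.29 to 0.12 for Junb. A set term gave 0.077 for Jun and 0.024 for Junb, and Junb was 0.12 with the first set and with the replicate block. In CiPSC, leaving out a line gave −0.15 to 0.018 for Egr1, −0.073 to 0.066 for Fos and −0.025 to 0.017 for Fosb, upper-quartile scaling 0.0044 for Fos and quantile scaling 0.0048 for Fosb. The causes were not tested. CiPSC against ESC without ESC replicate 4 was not run, since it leaves no ESC library on that scale. The lowest values, such as Junb in ESC replicate 1 at an estimated 5.98 reads (95% interval 2.19 to 13.03), are limited by depth.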
